A study of Rattus norvegicus with 12 samples.

Results

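The fetal liver genes that fall silent after birth (Afp, Igf2, Gpc3, Dlk1 and H19) and a pair of repressors of Afp (Zhx2 and Zbtb20) were examined in the livers of young rats. The genes were chosen by name, and every probe set annotated to 1 of these symbols alone was taken. This gave 16 probe sets of 7 genes, out of 20826 probe sets with 1 symbol that cover 14217 genes. The livers came from 5-week-old male Wistar rats. After 4 days of conditioning on the AIN93G basal diet, the rats were fed that diet for 11 days with 20% maple syrup or with 20% of a sugar mix syrup of similar sugar composition, and all were fasted for 16 h before dissection. Each diet is represented by 6 arrays, each labelled as a separate biological replicate, although the labels count 7 animals in the maple syrup arm and 8 in the sugar mix arm. No fetal, newborn or fully adult liver is among the 12 samples, so the values describe 1 age.

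Alpha-fetoprotein, encoded by Afp, is the main serum protein of the fetus and is made by the yolk sac and the fetal liver. Its transcription falls steeply in the weeks after birth, while that of its neighbour albumin stays high. In mice the zinc-finger and homeobox protein ZHX2 and the BTB zinc-finger protein ZBTB20 repress Afp in postnatal liver, and ZHX2 also acts on H19 and Gpc3. Igf2 encodes a fetal growth factor, H19 a long noncoding RNA transcribed from the same imprinted domain, Gpc3 a cell-surface heparan sulfate proteoglycan, and Dlk1 a membrane protein of hepatoblasts that resembles Notch ligands. Several of these genes return in regenerating liver or in liver tumours.

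The promoters of Afp and of albumin are shown because the fetal and the lifelong member of this family lie next to each other on rat chromosome 14, with 0 genes between them in RefSeq. Each sequence runs from 250 bases before to 50 bases after the RefSeq start site in build GRCr8. Both lie on the minus strand, Afp at chr14:17875596-17875895 and Alb at chr14:17906930-17907229. Capitals mark matches to 4 motifs: the HNF1 half-sites GTTAAT and GTTAAC, the NR5A2 site TCAAGGNCA (each searched on both strands, with no overlap between matches here) and the TATA box TATAAA on the gene's strand.
Afp: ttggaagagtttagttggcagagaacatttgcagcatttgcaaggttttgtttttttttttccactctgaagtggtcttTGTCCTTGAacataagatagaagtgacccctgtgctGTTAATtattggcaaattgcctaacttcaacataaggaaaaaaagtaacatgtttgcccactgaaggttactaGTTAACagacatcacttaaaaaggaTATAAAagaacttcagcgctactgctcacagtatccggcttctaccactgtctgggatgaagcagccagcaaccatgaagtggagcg
Alb: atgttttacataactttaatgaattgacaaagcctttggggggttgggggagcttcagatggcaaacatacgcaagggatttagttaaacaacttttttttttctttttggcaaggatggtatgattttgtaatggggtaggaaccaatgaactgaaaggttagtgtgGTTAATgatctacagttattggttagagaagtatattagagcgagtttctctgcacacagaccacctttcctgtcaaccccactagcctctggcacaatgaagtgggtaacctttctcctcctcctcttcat
In Afp the reverse complement of the NR5A2 motif began at position -171, GTTAAT at -135, GTTAAC at -62 and TATAAA at -37, counted from the start site. In Alb, GTTAAT began at -82. Of 33365 rat promoters of this length, 7.46% held GTTAAT, 2.78% GTTAAC, 1.60% the NR5A2 motif and 8.80% the TATA motif. These are matches of letters, not measured binding. Igf2 and H19 are likewise close neighbours, on chromosome 1, with only Mir675, the microRNA gene inside H19, between them. Promoter entries were found for 4 of the 7 genes (Afp, Igf2, Gpc3 and Dlk1).

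The deposited values are the authors' processed score, which resembles a log2 intensity in its level (5.57 to 15.21 over the whole table) but hardly differs between arrays. The median standard deviation (SD) of a named probe set over the 12 arrays was 7.65e-06. A difference in this score cannot be read as a fold change. Each animal is therefore described by its distance from the mean of all 12 animals in units of that probe set's SD (z), and each diet difference by Hedges' g, the difference of means in units of the SD within diets, maple syrup minus sugar mix. Probe sets differ in how strongly they bind, and no detection call was used, so levels of different genes are not set against each other and none is called on or off. The tissue label was checked on 8 hepatocyte markers, whose levels ran from 14.1 for fibrinogen beta (Fgb) to 15.21 for albumin (Alb), the highest value in the table.

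Afp was measured by 1 probe set (1367758_at), with a mean level of 8.29 over the 12 livers. The score was 8.2940 in the lowest, 8.2952 in the median and 8.2978 in the highest liver of the maple syrup rats, against 8.2934, 8.2941 and 8.2945 in the sugar mix rats. Maple syrup replicate 4 stood highest of all with a z of 2.59, followed by maple syrup replicate 5 with 1.02. The lowest was sugar mix replicate 1, with a z of -1.04. The diets overlapped, since maple syrup replicates 1 and 3 (z of -0.56 and -0.60) lay among the sugar mix livers. The SD between animals was 1.44e-03 on maple syrup and 3.93e-04 on the sugar mix, a ratio of 3.66, which was not tested. Without maple syrup replicate 4 the SD on maple syrup was 8.48e-04 and the ratio 2.16.

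**Figure D1:**
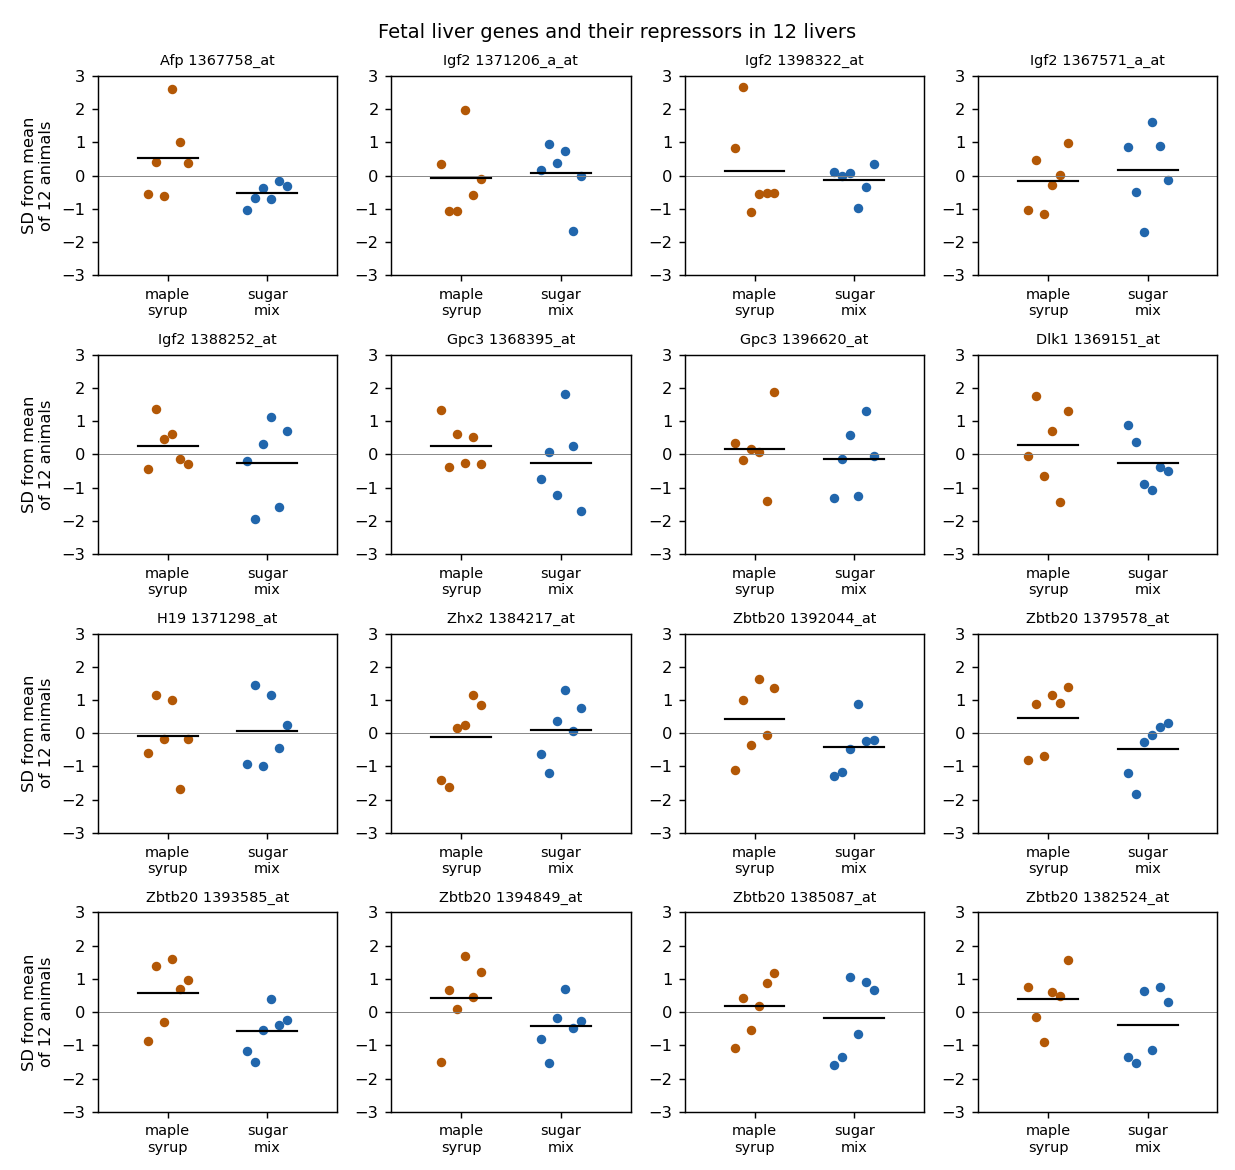
Values of the 16 probe sets in the 12 livers, as z (SD from the mean of 12 animals), with the maple syrup rats plotted beside the sugar mix rats. Afp shows 1 maple syrup liver at 2.59, and the diets overlap in all 16 probe sets.

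The mean of Afp was higher with maple syrup by a g of 1.15 (95% interval -0.03 to 2.29, n = 6 each). The maple syrup animal was the higher one in 30 of 36 pairs of animals. An exact two-sided permutation test of the means over 924 arrangements gave p = 0.0346, and the limma fit over all named probe sets gave an unadjusted p of 0.0481. After Benjamini-Hochberg adjustment over 20826 probe sets the limma adjusted p was 0.9998, so the difference did not pass. In that fit 0 probe sets passed an adjusted p of 0.05, a background of 0.00%, with 0.627 as the lowest adjusted p. At an unadjusted limma p under 0.05, 434 probe sets (2.08%) were higher and 439 (2.11%) lower with maple syrup.

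Across the 16 probe sets 12 had a higher mean with maple syrup and 4 a lower one, where 48.7% of all named probe sets were higher. The split depended on the scaling of the arrays: 15 were higher and 1 lower after subtracting each array's median, when 94.9% of all genes were higher. After quantile normalization 7 were higher and 9 lower, when 40.9% of all genes were higher. The median g was 0.48 over the 16 and -0.02 over all named probe sets. The 16 are not independent, because 6 of them belong to Zbtb20. By limma 0 of the 16 passed after adjustment, and 2 were higher and 0 lower at an unadjusted p under 0.05, namely Afp and the Zbtb20 probe set 1393585_at.

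For the other fetal genes 0 of 8 probe sets had a diet difference at an unadjusted limma p under 0.05. Of all named probe sets 2.08% were higher and 2.11% lower at that p. A count of 0 among 8 is near that share and is not read as a result about these genes. Igf2 had 4 probe sets, with levels of 7.71 (1371206_a_at), 7.25 (1398322_at), 7.07 (1367571_a_at) and 6.80 (1388252_at). Their g values were -0.15, 0.23, -0.30 and 0.48, so the mean was higher in 2 and lower in 2. From animal to animal r between these probe sets ran from -0.20 to 0.21 over 12 animals, with 0 of 6 pairs at a permutation p under 0.05. In the first, z was -1.08 at the lowest, -0.34 at the median and 1.96 at the highest in maple syrup livers, against -1.67, 0.28 and 0.94 in sugar mix livers.

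Gpc3 was read by 2 probe sets with levels of 6.89 (1368395_at) and 6.60 (1396620_at). The first had a g of 0.47 with the maple syrup animal higher in 24 of 36 pairs, and the second a g of 0.26 with 20 of 36. The diets overlapped in both, and r between the pair was -0.20 over 12 animals. Dlk1 (1369151_at, level 6.95) had a g of 0.49 with the maple syrup animal higher in 23 pairs. Its z was -1.43, 0.32 and 1.75 (lowest, median and highest) in maple syrup livers, against -1.08, -0.44 and 0.88 in sugar mix livers.

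H19 (1371298_at, level 7.99) had a g of -0.14, with the maple syrup animal higher in 16 of 36 pairs. Its SD over 12 animals was 3.27e-03, the widest in score units among the members and the one member value above that of Afp (1.22e-03). How strongly the scale is compressed may differ between probe sets, so these spreads are not ranked as biological variation. The lowest, median and highest z were -1.67, -0.17 and 1.14 in maple syrup livers, against -0.996, -0.10 and 1.45 in sugar mix livers, an overlap over nearly the whole range.

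Of the repressors, Zhx2 had 1 probe set (1384217_at, level 8.25), which showed no diet difference that passed (g of -0.19, 95% interval -1.23 to 0.87, 16 of 36 pairs, exact permutation p = 0.714). Zbtb20 had 6 probe sets, 4 with levels from 8.15 to 10.3 (1392044_at, 1379578_at, 1393585_at and 1394849_at) and 2 with levels of 7.63 (1385087_at) and 7.54 (1382524_at). All 6 had a higher mean with maple syrup, with g from 0.31 to 1.27 (after quantile normalization 5 were higher and 1385087_at was lower). The largest, in 1393585_at, had a 95% interval of 0.07 to 2.43, with the maple syrup animal higher in 30 of 36 pairs, an exact permutation p of 0.0455 and a limma adjusted p of 0.9998. In that probe set z was -0.88, 0.83 and 1.59 (lowest, median and highest) in maple syrup livers, against -1.52, -0.47 and 0.39 in sugar mix livers. The other 5 had exact permutation p from 0.102 to 0.567.

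**Figure D2:**
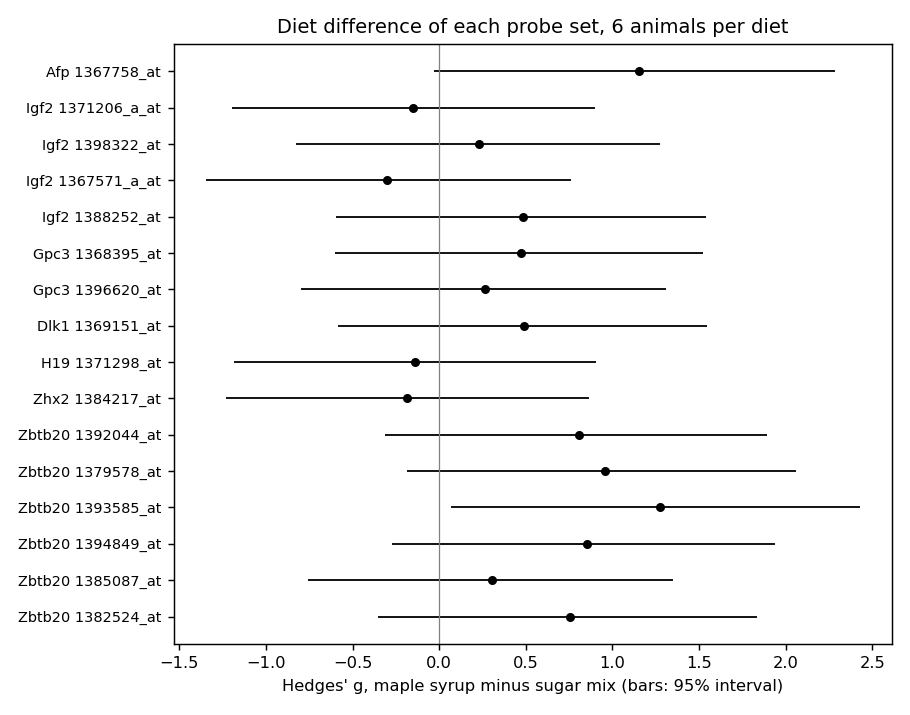
Hedges' g of the diet difference (maple syrup minus sugar mix, in SD within diets) for the 16 probe sets, with 95% intervals. Afp at 1.15 and Zbtb20 1393585_at at 1.27 stand farthest to the right, and the interval of Afp reaches -0.03.

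The 4 Zbtb20 probe sets with the higher levels followed each other from animal to animal (r of 0.85 to 0.94 over 12 animals), as did the other two (r of 0.78), and r between the 4 and the 2 ran from 0.36 to 0.80. The 6 readings thus come from 1 gene in the same 12 livers and are not separate evidence.

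On the values as deposited Afp varied in the same direction as Zbtb20, its repressor in mouse liver, though not after every scaling of the arrays. Over 12 animals r was 0.70 (1392044_at), 0.74 (1379578_at), 0.79 (1393585_at) and 0.72 (1394849_at), with permutation p of 0.00623, 0.00319, 0.00054 and 0.00474. Spearman's rho was 0.73, 0.86, 0.76 and 0.57 in the same order, with permutation p of 0.00926, 0.00063, 0.00595 and 0.0588. For the 2 probe sets with lower levels r was 0.47 and 0.50, with permutation p of 0.114 and 0.0923, and rho was 0.66 and 0.59, with permutation p of 0.0228 and 0.0447. These are unadjusted values among 15 pairs of Afp with another member. In the limma fit of every named probe set on Afp and diet, the adjusted p of all 15 was 0.999. There 0 of 20825 probe sets passed an adjusted p of 0.05 (0.00%), with 365 (1.75%) positive and 413 (1.98%) negative at an unadjusted p under 0.05. The 4 Zbtb20 probe sets with the higher levels were among those 365, and 0 of the other 11 member probe sets were at an unadjusted p under 0.05 in either direction.

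Because both genes had a higher mean with maple syrup, the relation was also taken with the diet means removed. The r values of the 4 probe sets were then 0.61, 0.64, 0.68 and 0.64, with permutation p (shuffled within diet) of 0.0649, 0.0267, 0.0305 and 0.0781. Of all named probe sets, 98.4% to 99.4% had a lower r with Afp than these 4, and 88.3% and 93.8% a lower one than the other two. Within the maple syrup rats alone r was 0.72 to 0.80 for the 4 (n = 6, exact permutation p of 0.0653 to 0.101). Within the sugar mix rats it was 0.18 to 0.68 (n = 6, exact permutation p of 0.151 to 0.782). In the 2 probe sets with lower levels, r was 0.46 and 0.29 in the maple syrup rats and 0.92 and 0.88 in the sugar mix rats (exact permutation p of 0.376, 0.571, 0.0139 and 0.0458).

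**Figure D3:**
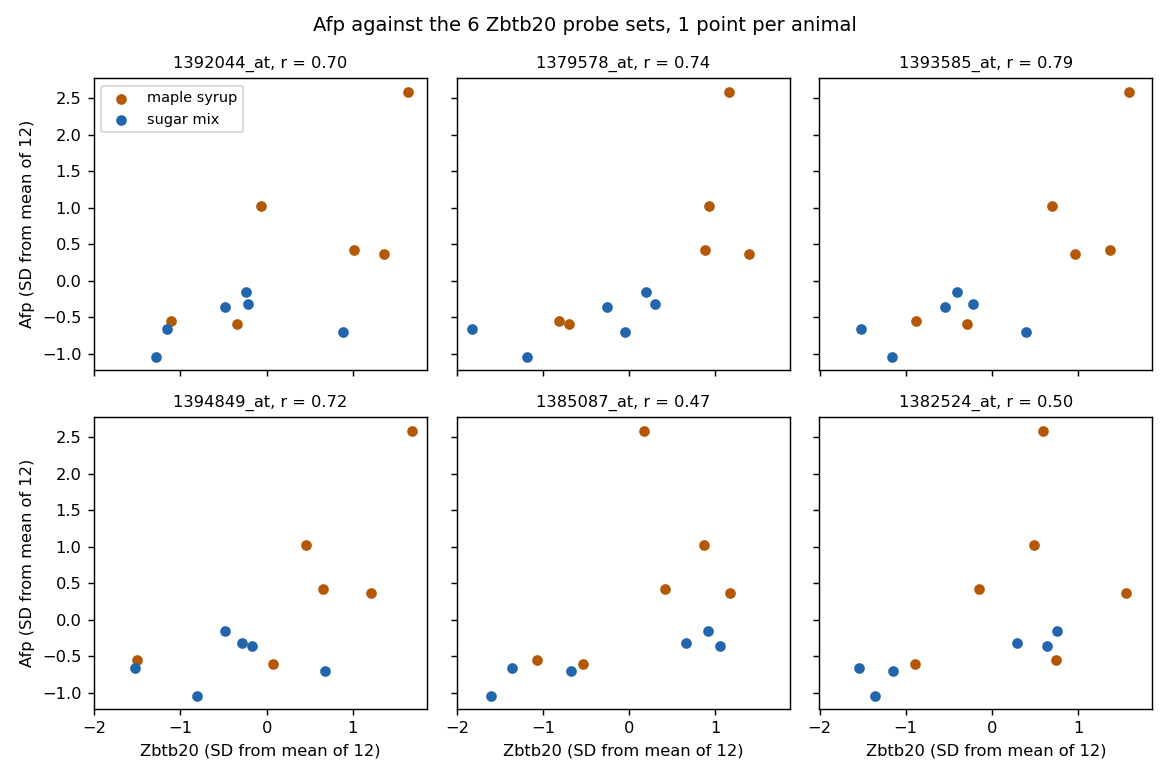
Afp (vertical axis) against the 6 Zbtb20 probe sets (horizontal axes) in the 12 livers (z, SD from the mean of 12 animals), 1 point per animal, maple syrup and sugar mix rats marked separately. The points climb from lower left to upper right, with r of 0.79 for 1393585_at, and the maple syrup liver at an Afp z of 2.59 lies at the top of each panel.

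With the diet means kept, r stayed above 0 in all 6 probe sets without the 2 livers farthest from the median of Afp, maple syrup replicates 4 and 5. Without them r was 0.74, 0.86, 0.80 and 0.61 for the 4 probe sets, with permutation p of 0.0146, 0.0017, 0.0066 and 0.0581, and 0.78 and 0.68 for the other two. With 1 animal left out r fell as low as 0.56 for 1392044_at and 0.59 for 1394849_at. Because the diet means were kept, these values do not address the relation within diets. The relation did depend on how the arrays were scaled. After subtracting each array's median, r for the 6 probe sets was 0.34 to 0.52, and after quantile normalization -0.34 to 0.56, with 0 of the 6 at a permutation p under 0.05 in either. With the diet means removed as well, quantile normalization left r above 0 in 3 of the 6 and below 0 in 3. Quantile normalization also left each of these 6 probe sets with 4 to 6 distinct values over the 12 arrays. The array medians ranged over 8.70e-04, beside SDs over 12 animals of 1.22e-03 for Afp and 4.86e-05 to 2.66e-04 for the Zbtb20 probe sets. The median deviation of probe sets from their own means ranged over 4.74e-07, and after centring on that r was 0.47 to 0.79, again with 4 pairs at a permutation p under 0.05.

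For Zhx2 and Afp no such relation passed: r was 0.21 over 12 animals (permutation p = 0.535), 0.33 with the diet means removed and -0.0017 without the 2 farthest livers. Zhx2 and the 6 Zbtb20 probe sets had r of 0.26 to 0.54, with 0 of 6 pairs at a permutation p under 0.05.

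Over the 8 probe sets of Igf2, Gpc3, Dlk1 and H19, r with Afp ran from -0.10 to 0.30, was above 0 in 5 (47.6% of all named probe sets were above 0) and had a permutation p under 0.05 in 0. Gpc3 1396620_at differed between views: r was 0.10 over 12 animals, 0.67 without the 2 livers farthest in Afp (permutation p = 0.0331), -0.22 within the maple syrup rats (n = 6, exact permutation p = 0.679) and 0.89 within the sugar mix rats (n = 6, exact permutation p = 0.0208). The other 7 had a permutation p above 0.05 in each of these views. Without maple syrup replicate 4 alone, r changed sign for H19 (0.11 over 12 animals, -0.25 without it) and for 3 of the 4 Igf2 probe sets, as in 1371206_a_at (0.30 over 12 animals, -0.45 without it). Among all 29 pairs of probe sets from different fetal genes r was -0.31 to 0.55, with a median of 0.10, and 0 had a permutation p under 0.05. Igf2 and H19, neighbours in 1 imprinted domain, are among these pairs.

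**Figure D4:**
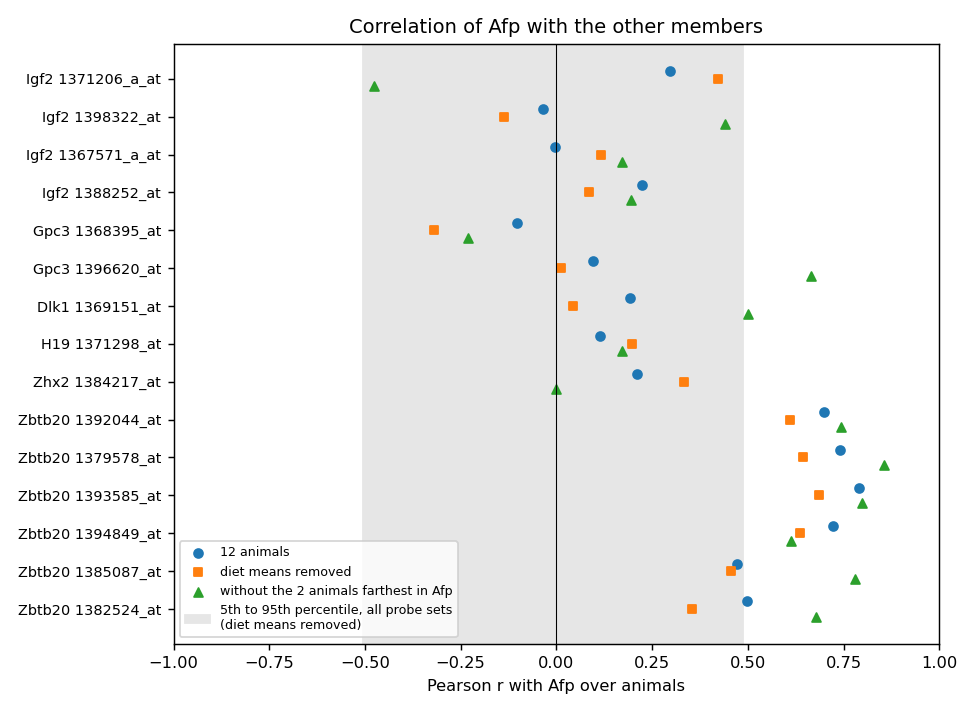
Pearson's r of Afp with the other 15 member probe sets over 12 animals, with diet means removed and without the 2 livers farthest in Afp. The Zbtb20 probe sets lie at 0.47 to 0.79 over 12 animals and the fetal genes between -0.10 and 0.30.

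Over all 98 pairs of probe sets from different members, 9 had an unadjusted permutation p under 0.05. No share over pairs of all named probe sets stands beside this count. Pairs that share a gene are not independent either, so the count is not read as a result about the members. Afp with Zbtb20 made up 4 of them. Zhx2 was opposed to Igf2 1398322_at (r of -0.72, permutation p = 0.00328, and -0.71 with the diet means removed, permutation p = 0.0146). The other Igf2 probe sets had r above 0 with Zhx2 (0.05, 0.25 and 0.25). The SD of 1398322_at was only 6.48e-07, and maple syrup replicate 2 stood at a z of 2.65 in it. Zhx2 was also opposed to Dlk1 (r of -0.58, permutation p = 0.0481, and -0.58 with the diet means removed, where permutation p = 0.0804 no longer passed). With the other 7 fetal probe sets r of Zhx2 had permutation p above 0.05. The last 3 joined Zbtb20 to Igf2 1388252_at in 2 of its probe sets (r of 0.61 and 0.60) and to Gpc3 1396620_at in 1 (r of 0.66). No pair of these 3 was shared by the other probe sets of the same fetal gene at a permutation p under 0.05.

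The probe sets whose pattern was most like that of Afp, by r over 12 animals with the diet means removed, belonged to Scyl3 (r of 0.92), Dsp (0.91), Pik3ca (0.88), Ccdc184 (0.86), Lrp8 (0.85), Senp7 (0.85), Hsf2 (0.84) and Ctps2 (0.84). Dsp encodes the desmosome protein desmoplakin, Pik3ca a catalytic subunit of PI3-kinase, Lrp8 a lipoprotein receptor and Hsf2 a heat shock transcription factor. The most opposed were Ralgds (-0.88), Sybu (-0.87), Tmc8 (-0.87) and Ltc4s (-0.86). Other probe sets of the same gene often read differently: the other Dsp probe set had r of 0.08 and the 5 others of Pik3ca -0.20 to 0.02, while the 2 others of Scyl3 had 0.48 and 0.70. Among 20825 probe sets, r ran from -0.50 at the 5th to 0.49 at the 95th percentile, and 48.1% were above 0. Scyl3 had the smallest limma adjusted p of all, 0.770. With the diet means kept, r was 0.94 for Scyl3 and 0.64 for Dsp over 12 animals, and 0.72 and 0.25 over the 10 livers other than maple syrup replicates 4 and 5. Over the 12 animals it was 0.43 and 0.23 after subtracting each array's median (permutation p of 0.162 and 0.437). After quantile normalization it was 0.14 and 0.34 (permutation p of 0.638 and 0.255). The array medians ranged over 8.70e-04, beside score ranges of 1.76e-04 for Scyl3 and 4.55e-06 for Dsp. After centring on the median deviation r was 0.94 and 0.67.

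For the other members the 3 most alike genes, by the same measure, were Dgki, Itga6 and Mrps25 for Igf2 (0.85 to 0.90), Gpank1, Foxc1 and Ric3 for Gpc3 (0.85 to 0.91), and Fos, Ppp1r12c and Nucks1 for Dlk1 (0.95 to 0.97). For H19 they were Acsm1, Adgrf1 and Asgr1 (0.92 to 0.94), of which Asgr1 encodes a subunit of the hepatocyte asialoglycoprotein receptor. Zhx2 was followed most closely by Ero1a, Slc15a4 and Nlk (0.91 to 0.92), and Zbtb20 1392044_at by Ccl9, Glud1 and Opalin (0.88 to 0.89). Here too a second probe set could differ, as for Fos, with r of 0.97 in 1 probe set and -0.23 in the other.

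The gene lists that follow are described on the values as deposited. Their counts differed by at most 1 gene after centring on the median deviation. After subtracting each array's median many lists turned, as 94.9% of all genes then were higher and 2.57% had r with Afp below 0. The array medians had an SD of 2.31e-04, beside a median SD of 7.65e-06 for a named probe set. List counts after that step thus mostly carry the array median and are not read as a property of the lists. Among 19 measured factors known to act on Afp or on fetal liver genes, 0 passed after adjustment in either fit. By mean 6 were higher and 13 lower with maple syrup (median g -0.24), where 47.1% of all genes were higher. With the diet means removed, r with Afp was above 0 in 8 and below 0 in 11, where 54.5% of all genes were below 0. Nr5a2, the nuclear receptor LRH-1 that binds the motif capitalised in the Afp promoter, had the largest r of the list, 0.74 in the probe set with the highest level (permutation p = 0.00233, limma unadjusted p = 0.00719, limma adjusted p = 0.999). Its other two probe sets had r of 0.55 and 0.47. With the diet means kept, r of the 3 was 0.70, 0.49 and 0.43 over 12 animals (permutation p of 0.00591, 0.0986 and 0.162), and 0.49, 0.59 and 0.49 without the 2 livers farthest in Afp (permutation p of 0.151, 0.0746 and 0.153). The probe set with the highest level thus no longer passed without those livers, and the other two had not passed with them. Prox1, a homeobox factor needed for liver development, was opposed to Afp in 1 probe set (r of -0.72, permutation p = 0.0154) and had r of -0.32 in its other one. With the diet means kept, r was 0.70 for the highest Nr5a2 probe set and -0.64 for that of Prox1. After subtracting each array's median it was 0.27 and 0.17 (permutation p of 0.357 and 0.555). After quantile normalization it was 0.32 and -0.59 (permutation p of 0.297 and 0.0346). The array medians ranged over 8.70e-04, beside score ranges of 4.93e-05 and 5.60e-05 for these 2 probe sets. After centring on the median deviation r was 0.70 and -0.64. Nfyb, a subunit of the CCAAT-binding factor NF-Y, had r of -0.63 (limma unadjusted p = 0.0321). Of the relatives of Zhx2, Zhx1 had r of 0.21 and Zhx3 of -0.26.

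**Figure D5:**
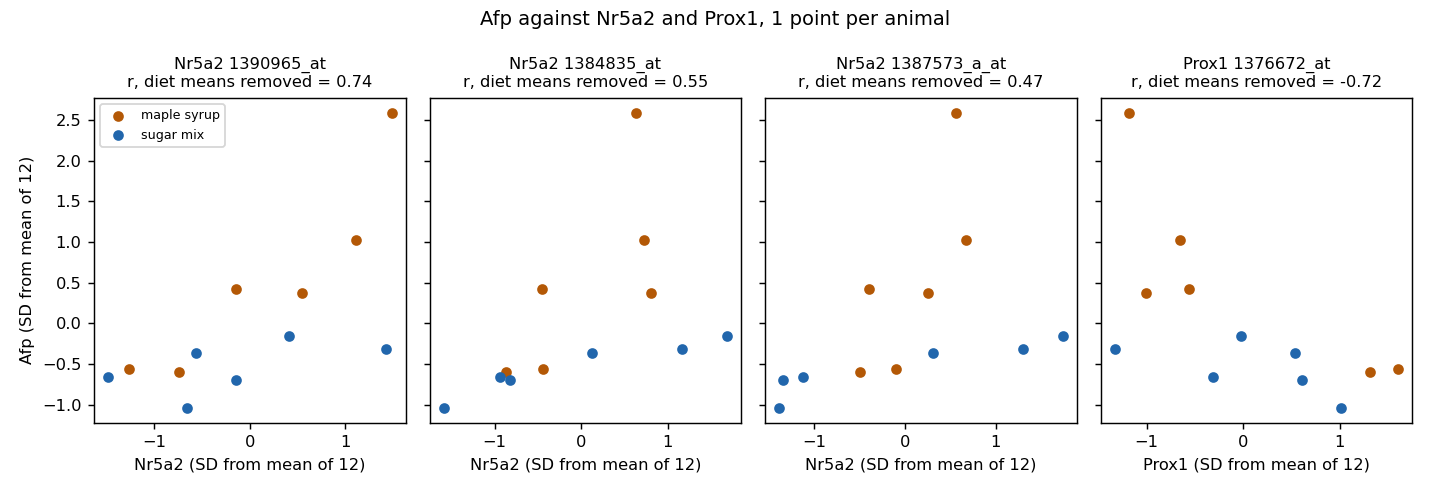
Afp (vertical axis) against the 3 Nr5a2 probe sets and Prox1 1376672_at (horizontal axes), as z (SD from the mean of 12 animals), 1 point per animal, maple syrup and sugar mix rats marked separately. On the values as deposited, with diet means removed, r is 0.74, 0.55 and 0.47 for Nr5a2 and -0.72 for Prox1. The maple syrup liver highest in Afp lies at the top of each panel.

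In the albumin family, the 2 probe sets of Alb took 2 distinct values each over the 12 arrays, at the last decimal of the file, so neither a direction nor a correlation is read from them. Of the vitamin D-binding protein gene Gc, 1 probe set took 5 distinct values, and the other (1368289_at, level 11.4) had a g of 1.32 (exact permutation p = 0.0368) and r with Afp of 0.23 with the diet means removed. Afm, which encodes afamin, had a g of 0.70 and r of 0.17. In the limma fits 0 of the 3 genes were at an unadjusted p under 0.05, by the probe set with the highest level. Of all 14217 genes 603 were at that p for diet, and 243 positive and 310 negative for Afp. Of the genes that ZHX2 controls in mouse liver, Lpl had a g of -0.06 and Elovl3 of -0.57.

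Among 17 measured imprinted genes, 10 were higher and 7 lower by mean with maple syrup, where 47.1% of all genes were higher. The median g was 0.16, with 0 at an unadjusted limma p under 0.05, where 603 of all 14217 genes were. Meg3, the noncoding RNA gene of the Dlk1 domain, had a g of -0.86. Of 16 partners of IGF2 (receptors, binding proteins, RNA-binding proteins), 6 were higher and 10 lower, beside the same 47.1% of all genes. The largest difference was in Igfals, which encodes the acid-labile subunit of circulating IGF complexes (g of -1.28, 95% interval -2.43 to -0.07, 4 of 36 pairs, limma adjusted p = 0.9998). Igf1r, the receptor for IGF1 and IGF2, was opposed to Afp in 1 probe set with the diet means removed (r of -0.77, limma adjusted p = 0.999), but its other probe set had r of 0.17. With the diet means kept the first probe set had r of -0.54 over 12 animals (permutation p = 0.0742) and of 0.0859 over the 10 livers without maple syrup replicates 4 and 5. The r of -0.54 became 0.21 after subtracting each array's median and -0.22 after quantile normalization. After centring on the median deviation it was -0.53 (permutation p = 0.0807). The score of this probe set ranged over 1.80e-05, beside 8.70e-04 for the array medians. The r of 0.21 thus mostly carries the array median.

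Of 4 other glypicans 1 was higher and 3 were lower, and Gpc2 was opposed to Afp (r of -0.64, permutation p = 0.0660). Of 10 genes of the Notch and DLK family 5 were higher and 5 lower. The share of all genes that were higher, beside both lists, was 47.1%.

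Among 19 measured hepatoblast and oncofetal genes outside the 7, 3 were higher and 16 lower by mean with maple syrup, with a median g of -0.42. After subtracting each array's median 16 were higher and 3 lower, where 94.9% of all genes were higher. After quantile normalization 7 were higher and 8 lower, where 40.9% of all genes were higher. On the values as deposited 47.1% of all 14217 genes, 1 probe set each, were higher and the median g was -0.04. In the limma fit 0 of the 19 passed after adjustment. Hmga2, a chromatin protein of fetal tissues, was the one gene at an unadjusted p under 0.05 (g of 1.21, adjusted p = 0.9998). Of all 14217 genes 603 were at an unadjusted p under 0.05. Mdk had a g of -0.98, Aldoa of -0.83 and Krt8 of -0.81. Among 14 adult hepatocyte genes 6 were higher and 8 lower, and Pck1, the gluconeogenic enzyme induced by fasting, had a g of -1.91 (2 of 36 pairs, limma adjusted p = 0.9998). The score of Pck1 ranged over only 3.91e-06 across the 12 arrays, and it was constant after quantile normalization. For 13 of the 14 adult hepatocyte genes, Ttr being the exception, r with Afp was above 0, between 0.04 and 0.47. Over all genes 54.5% had r below 0. In the limma fit on Afp and diet 0 of the 14 were associated with Afp at an unadjusted p under 0.05. Of all 14217 genes 243 were positive and 310 negative at that p. The 13 include Alb, with its 2 distinct values. After quantile normalization it was above 0 in 2 and below 0 in 3 of the 14, and the other 9 were constant over the arrays. Of 12 proliferation genes 7 were higher and 5 lower, and Mcm3 had a g of 1.46 (limma adjusted p = 0.9998).

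Markers of other cells were followed beside these results, since in whole liver fewer cells of a type and less RNA per cell cannot be told apart. All 7 Kupffer cell markers had r with Afp below 0 with the diet means removed (-0.18 to -0.51, median -0.23), where 54.5% of all genes were below 0. Of the other lists, 7 of 8 erythroid, 7 of 10 stellate cell and fibroblast, 4 of 6 sinusoidal endothelial, 3 of 5 cholangiocyte and 2 of 8 hepatocyte markers were below 0. After subtracting each array's median 1 of the 7 Kupffer cell markers was below 0, and after quantile normalization 4 were, with 1 constant. The mean z of the 7 ran from -1.43 to 0.76 in maple syrup livers, against -0.24 to 0.84 in sugar mix livers. By mean 6 of 7 were lower with maple syrup, where 47.1% of all genes were higher. After subtracting each array's median 5 of the 7 were higher and 2 lower (94.9% of all genes higher). After quantile normalization 4 were higher and 2 lower, with 1 constant (40.9% of all genes higher). Of 8 erythroid markers 7 were higher by mean with maple syrup, with mean z of -0.26 to 1.44 in maple syrup livers, against -1.03 to 0.35 in sugar mix livers, and Epb42 had a g of 1.66 (limma adjusted p = 0.9998). After quantile normalization 3 of the 8 were higher and 3 lower. For diet, 0 of 10 stellate cell and fibroblast, 5 cholangiocyte and 6 sinusoidal endothelial markers were at an unadjusted limma p under 0.05. Of all 14217 genes 603 were. By mean 3, 1 and 5 of these 10, 5 and 6 markers were higher and 7, 4 and 1 lower, in that order. After subtracting each array's median 6, 5 and 6 were higher and 4, 0 and 0 lower. After quantile normalization 3, 2 and 1 were higher and 6, 3 and 4 lower, the rest constant. Stab2, a sinusoidal scavenger receptor, had r with Afp of -0.60 with the diet means removed (limma adjusted p = 0.999). Its r was -0.26 with the diet means kept (permutation p = 0.413) and -0.21 without the 2 livers farthest in Afp. The r of -0.26 became 0.20 after subtracting each array's median and 0.10 after quantile normalization. After centring on the median deviation it was -0.26. The score of Stab2 ranged over 8.25e-05, beside 8.70e-04 for the array medians. The r of 0.20 thus mostly carries the array median. The part of these cells in the values of Afp and Zbtb20 was not tested.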

How the data were processed

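Liver RNA from 12 rats was hybridised to Affymetrix arrays from 2 ug of total RNA, per the labels' protocols. The deposited table holds the authors' processed score for 31099 probe sets, with 0 missing values. How the arrays were summarized and normalized is not given in the sources used here. Sizes were therefore planned in units of the spread between animals. The number of arrays limits the precision.

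By the platform annotation, with symbols updated through RefSeq, 20826 probe sets had 1 symbol, 436 several, 9780 none, and 57 controls were left out. The labels name each animal's diet and no batch. Limma 3.58.1 (lmFit, eBayes with trend, R 4.3.3) was fitted over all named probe sets for diet, and for Afp with diet as a term, with Benjamini-Hochberg adjustment and a threshold of 0.05. Hedges' g has a 95% noncentral t interval. Single values were tested with two-sided exact permutations, and correlations with 100000 permutations. The fits were tested on simulated data. The adjustment over member pairs alone foreseen in the design is not given, because the members and lists were chosen with earlier results of these data known.

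Named genes were the members, the 8 genes most like and 4 most opposed to Afp, 3 most like each other member, and per list the smallest diet p and largest r. Genes named outside that rule were chosen after their values were seen. Lists used, per gene, the probe set with the highest mean, and list genes without a probe set of 1 symbol were not analysed here. Same-numbered animals did not deviate together (correlations of -0.04 to 0.12), so the replicate numbers were not treated as pairs.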

Additional observations from a re-analysis of the deposited data

Results flagged for a closer look

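In 1 of 32 groups of 6 livers checked (16 probe sets in 2 diets) a single animal lay apart from the other 5: sugar mix replicate 5 was the lowest for Igf2 1371206_a_at, with a score of 7.71 and a z of -1.67. Its gap to the next liver was 0.632 of the group's range, just past Dixon's 95% critical value. Chance places about 5% of such groups past that value.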

How the results depend on the processing

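Settings were changed one at a time, and those that centred on the median deviation, used ranks or left out the 2 livers farthest in Afp and the list counts by scaling were chosen after seeing the data. The count for diet stayed at 0 probe sets under all settings run. For the association with Afp it was 0 except after median centring, with 1 (Sybu, negative). The 4 pairs of Afp with Zbtb20 at a permutation p under 0.05 became 2 with diet means removed, 0 after median centring, 0 after quantile normalization and 1 with a replicate block. With 1 animal left out the counts stayed at 0 for both fits and at 4 pairs of Afp with another member. The pairs behind that 4 need not be the same each time. With 1 animal left out r ran from 0.56 to 0.81 for Zbtb20 1392044_at, 0.71 to 0.82 for 1379578_at and 0.76 to 0.85 for 1393585_at. It ran from 0.59 to 0.81 for 1394849_at, 0.37 to 0.74 for 1385087_at and 0.42 to 0.61 for 1382524_at. The moderated t for diet changed sign after median centring for Igf2 1367571_a_at (0.15), Igf2 1371206_a_at (0.25) and Zhx2 (0.24). The SDs of these probe sets over 12 animals were 4.16e-05, 1.82e-06 and 1.19e-05, in that order. The array medians had an SD of 2.31e-04. After median centring such values mostly carry the array median, so these signs are not read as a property of the genes. After quantile normalization the moderated t changed sign for Gpc3 1368395_at (-0.39), Gpc3 1396620_at (-0.93), Dlk1 (-1.23), Zbtb20 1385087_at (-0.55) and Igf2 1398322_at (-0.43). With 1 animal left out it ran from -0.98 to 0.037 for Igf2 1371206_a_at, -0.28 to 0.51 for Igf2 1398322_at, -0.10 to 1.10 for Gpc3 1396620_at, -0.69 to 0.28 for H19 and -0.81 to 0.17 for Zhx2. The r with Afp changed sign for Igf2 1371206_a_at (rank correlation -0.22, without the 2 livers -0.48), Igf2 1398322_at (median centring 0.22, median deviation 0.059, without the 2 livers 0.44, replicate block 0.29) and Igf2 1367571_a_at (diet means removed 0.12, median centring 0.22, rank correlation 0.035, without the 2 livers 0.17). It also did for Igf2 1388252_at (replicate block -0.0769), Gpc3 1368395_at (median centring 0.22), Gpc3 1396620_at (quantile -0.13), Dlk1 (quantile -0.14), H19 (rank correlation -0.12, replicate block -0.38), Zhx2 (without the 2 livers -0.0017, replicate block -0.33) and Zbtb20 1392044_at (quantile -0.34). With 1 animal left out r ran from -0.45 to 0.38 for Igf2 1371206_a_at, -0.27 to 0.19 for Igf2 1398322_at, -0.0792 to 0.13 for Igf2 1367571_a_at, -0.20 to 0.0285 for Gpc3 1368395_at, -0.0476 to 0.28 for Gpc3 1396620_at and -0.25 to 0.35 for H19. The r of 0.22 after median centring belongs to probe sets with SDs of 6.48e-07 (Igf2 1398322_at), 4.16e-05 (Igf2 1367571_a_at) and 2.05e-05 (Gpc3 1368395_at). It is likewise not read as a property of these genes. The cause of the other changes was not tested.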
